A study of Mus musculus with 4 samples.

Results

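The Kruppel-like factors (KLFs) described here are 10 genes, Klf2, Klf3, Klf4, Klf6, Klf7, Klf9, Klf10, Klf11, Klf12 and Klf13, taken by their symbols from the 56832 gene rows of each deposited count file. All 10 had a row and at least 1 library with counts. The samples are 4 libraries of naive microglia, which are brain macrophages, from female C57BL/6 mice labelled as having had no intervention, littermates of the transplanted mice of the study. They had been sorted as CD45 low to intermediate, CD11b-positive cells and made into libraries with a low-input kit, per the labels. The labels number them as replicates 1 to 4 of 1 group and do not tie each to its own animal, so a p-value describes the spread among these libraries alone, and that spread may be technical. No age is given in the labels. The graft-derived myeloid cells named in the design text of the series were not analysed here.

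KLFs are transcription factors that bind GC-rich and CACCC-type DNA elements through zinc fingers at the end of the protein. The finger region is alike across the family, while the rest of each protein decides whether it activates or represses. Klf2, Klf4 and Klf6 are best known in myeloid cells, where Klf2 restrains inflammatory gene expression, Klf4 promotes monocyte differentiation and Klf6 favours inflammatory gene expression. Several KLFs are also early response genes, whose transcripts appear within minutes of a stimulus.

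The libraries held 20360121 to 23292655 reads assigned to genes. Replicates 2 and 3 had a count for 18978 and 18431 genes, against 14850 in replicate 1 and 13944 in replicate 4. A list of 18 immediate early genes took 0.499%, 5.76%, 4.995% and 0.537% of counts in replicates 1 to 4. Mitochondrial genes took 0.405%, 0.675%, 0.761% and 0.454%, also more in replicates 2 and 3, and the part of either share in the KLF values was not tested. All 10 microglial markers listed reached 1 CPM (counts per 1000000 reads assigned to genes) in every library, led by P2ry12, Tmem119, Fcrls and Gpr34, with summed levels of 32858, 18986, 18739 and 32845 CPM. Because the samples are bulk RNA, fewer cells of a type and less RNA per cell cannot be told apart.

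Promoter sequence is shown for the KLFs best known in myeloid cells, Klf2, Klf4 and Klf6, and for Klf3, whose level was the steadiest. Each is the 250 bases before the annotated start, 5′ to 3′ on the strand of the gene, from RefSeq on GRCm38.p6, a build older than the GRCm39 build of the counts. They lie at chr8:72318812-72319061 on the plus strand, chr4:55532476-55532725 on the minus strand, chr13:5861239-5861488 on the plus strand and chr5:64803271-64803520 on the plus strand. Capitals mark matches, on either strand, to the GC box GGGCGG, the CACCC box CACCC, the CCAAT box CCAAT, the TGACG core of the cAMP response element or the MEF2 motif.
Klf2: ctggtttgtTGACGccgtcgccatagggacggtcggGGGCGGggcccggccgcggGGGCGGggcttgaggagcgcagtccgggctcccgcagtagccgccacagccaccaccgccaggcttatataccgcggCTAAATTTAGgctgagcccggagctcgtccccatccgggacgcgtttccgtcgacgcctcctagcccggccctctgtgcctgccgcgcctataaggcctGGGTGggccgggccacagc
Klf4: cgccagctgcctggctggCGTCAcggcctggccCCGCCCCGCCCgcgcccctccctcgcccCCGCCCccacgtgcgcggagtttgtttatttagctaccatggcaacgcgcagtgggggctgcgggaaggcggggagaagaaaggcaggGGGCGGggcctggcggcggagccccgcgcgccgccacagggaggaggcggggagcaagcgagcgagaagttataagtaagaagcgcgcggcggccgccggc
Klf6: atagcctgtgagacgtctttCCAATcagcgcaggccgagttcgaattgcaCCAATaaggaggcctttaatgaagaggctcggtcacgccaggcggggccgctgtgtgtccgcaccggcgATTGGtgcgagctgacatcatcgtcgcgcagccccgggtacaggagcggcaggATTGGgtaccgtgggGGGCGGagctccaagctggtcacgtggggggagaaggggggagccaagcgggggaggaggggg
Klf3: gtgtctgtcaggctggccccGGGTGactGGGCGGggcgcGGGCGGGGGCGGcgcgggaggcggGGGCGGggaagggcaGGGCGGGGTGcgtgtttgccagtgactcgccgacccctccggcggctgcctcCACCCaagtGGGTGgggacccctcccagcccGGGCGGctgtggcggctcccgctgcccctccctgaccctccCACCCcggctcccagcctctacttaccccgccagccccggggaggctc

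The Klf2 promoter was the sole one of the 9 KLF promoters in the table with a match to the MEF2 motif, CTAAATTTAG, which begins 118 bases before the start. Of 32536 promoter windows of the same length, 2.89% held such a match. The Klf3 promoter held 6 GC boxes and 5 CACCC boxes, the Klf4 promoter 4 GC boxes and a TGACG core, and the Klf6 promoter 1 GC box and 4 CCAAT boxes. GC boxes share a base with a neighbouring GC box in Klf4 and with a CACCC box in Klf3. Among all windows, 33.0% held a GC box, 52.1% a CACCC box, 33.8% a CCAAT box and 17.9% a TGACG core. No KLF promoter in the table matched the full cAMP response element TGACGTCA (1.56% of all windows). None matched the CArG box of serum response factor (1.48%) or the NF-kappa-B motif (7.28%). The exact letters TATAAA of the TATA box (12.3%) were found in Klf12 alone. That match lay on the opposite strand, 191 to 186 bases before the start, and variants of the TATA box were not searched. GC content was 71.2% in Klf2, 74.0% in Klf4, 64.8% in Klf6 and 78.4% in Klf3, against a median of 52.4% over all windows. These matches describe the letters in these windows and do not show binding.

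Klf6 was the most abundant KLF in reads. It gave 528, 1155, 1457 and 366 CPM in replicates 1 to 4, with a mean of 876 ± 515 CPM (SD, n = 4). Klf2 came next and varied far more. Klf2 gave 42.6, 1029, 464 and 47.2 CPM, a mean of 396 ± 466 CPM (SD, n = 4) whose SD exceeded it. Without replicate 2 the mean of Klf2 was 185 CPM. Replicates 2 and 3 were high for both genes, and for Klf2 they stood 9.85-fold or more above either of the others.

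The myeloid factor Klf4 stood lower, at 7.47, 56.6, 58.8 and 1.82 CPM in replicates 1 to 4. Its value in replicate 4 rests on 37 counts. The level in replicate 3 was 32.4 times that in replicate 4, with an exact 95% counting interval of 23.4 to 46.2. As with Klf2, replicates 2 and 3 lay well above replicates 1 and 4.

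Klf10 and Klf11, known as TGF-beta-inducible early genes, encode repressors that bind the SIN3A corepressor. Klf10 gave 44.7, 192, 186 and 32.1 CPM, with a mean of 114 ± 87.0 CPM (SD, n = 4). Klf11 gave 1.55, 40.8, 26.5 and 13.7 CPM, with a mean of 20.6 ± 16.9 CPM. Both were highest in replicates 2 and 3, but the lowest library was replicate 4 for Klf10 and replicate 1 for Klf11. The ratio of replicate 2 to replicate 1 for Klf11, 26.3, had an exact 95% counting interval of 18.5 to 38.6 because replicate 1 held 32 counts.

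Klf9 and Klf13 belong to the same branch of the family as Klf10 and Klf11. Klf13, first known as a regulator of the chemokine gene Ccl5 in T cells, gave 48.7, 148, 140 and 19.7 CPM, a mean of 89.1 ± 64.6 CPM (SD, n = 4). Klf9, a target of glucocorticoid and thyroid hormone receptors, gave 4.66, 14.0 and 15.6 CPM in replicates 1 to 3 and no count in replicate 4. A count of 0 there allows up to 0.147 CPM, the level of 3 counts, so Klf9 was at least 106-fold higher in replicate 3 than in replicate 4. Counting intervals and floors here cover counting error only, because copies of a molecule made by PCR cannot be recognised in these counts.

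Klf3 and Klf12 encode repressors that recruit CtBP proteins. Klf3 gave 132, 96.1, 142 and 108 CPM in replicates 1 to 4, a mean of 120 ± 21.4 CPM (SD, n = 4). Its highest library was 1.48 times its lowest, the narrowest range of the 10 genes, and replicate 2 was the lowest. Klf12 gave 15.6, 7.22 and 14.5 CPM in replicates 1 to 3 and 0.147 CPM, or 3 counts, in replicate 4. The ratio of replicate 1 to replicate 4 was 106 with an exact 95% counting interval of 36.0 to 517.

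Klf7, best known from neurons, was the member highest in replicate 1 together with Klf12. It gave 81.4, 44.4, 56.2 and 21.3 CPM, a mean of 50.8 ± 25.0 CPM (SD, n = 4). Replicate 4 was its lowest library by 2.08-fold, and replicates 1 to 3 lay within 1.83-fold of each other.

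**Figure D1:**
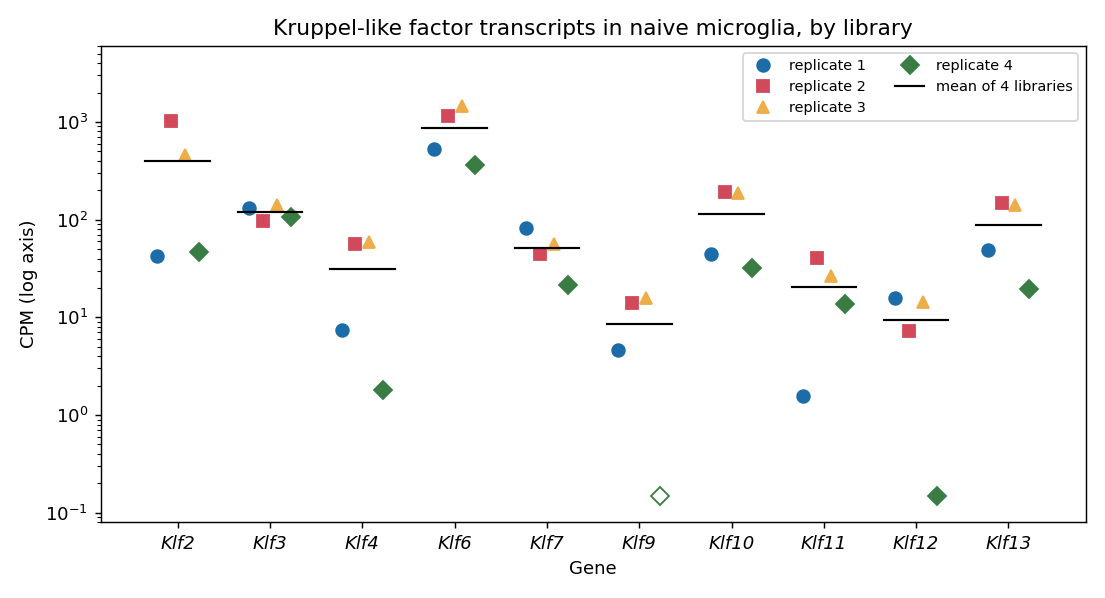
CPM of the 10 KLF genes (log axis) in each of the 4 libraries of naive microglia, with 1 symbol per replicate and a bar at the mean. The open symbol marks Klf9 in replicate 4, which had no count and is drawn at the level of 3 counts, 0.147 CPM. Replicates 2 and 3 are the highest libraries for 7 of the 10 genes, and Klf3 stays between 96.1 and 142 CPM.

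Replicates 2 and 3 were the highest pair of libraries for 7 of the 10 KLFs, namely Klf2, Klf4, Klf6, Klf9, Klf10, Klf11 and Klf13. Of all 13109 genes with a mean of 1 CPM or more, 27.5% showed that order. Among genes with a mean of 10 CPM or more it was 6 of 8 KLFs, against 21.7% of 8175 genes. For replicate 4 minus replicate 2 the median KLF difference was -2.72 on the log2(CPM + 0.5) scale, and the median over all genes was -0.33. Between replicates 2 and 3 the median KLF difference was 0.10.

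The largest difference between replicates 2 and 3 among the KLFs was that of Klf2, at -1.15 for replicate 3 minus replicate 2 on the same log2 scale. Klf4, Klf10 and Klf13 differed by less than 0.1 between those libraries, at 0.06, -0.05 and -0.07 for replicate 3 minus replicate 2. Between replicates 1 and 4, the difference for replicate 4 minus replicate 1 was 0.14 for Klf2 and -0.29 for Klf3, but -1.78 for Klf4 and 2.79 for Klf11.

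The highest library exceeded the lowest by 4-fold or more, on the log2(CPM + 0.5) scale, for 7 of the 10 KLFs. The same was true of 47.3% of genes with a mean of 1 CPM or more, and at 10 CPM or more it was 5 of 8 KLFs and 29.4% of genes. Klf6, at 3.98-fold, lay just inside the limit and passed it with trimmed-mean (TMM) scaling, at 4.34-fold. Without replicate 4 the count was 4 of 10, Klf2, Klf4, Klf10 and Klf11, against 22.7% of genes. The median log2 range over the 4 libraries was 3.60 for the KLFs and 1.84 for all genes with a mean of 1 CPM or more. Without replicate 4 the median for the KLFs was 1.62. The all-gene median was not computed without replicate 4, so 1.62 cannot be set against 1.84.

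Replicate 4 stood apart in its number of missing transcripts. Of 8629 genes with 4 CPM or more in each of the other libraries, 8.96% had 3 counts or fewer in replicate 4, among them Klf9 and Klf12. The same share was 1.77% for replicate 1, 0.0279% for replicate 2 and 0.0278% for replicate 3, with no KLF among those genes. The limit of 4 CPM was chosen after the values were seen. The part that these missing transcripts play in the KLF differences was not tested.

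Spread between libraries was then tested for every gene with edgeR. The quasi-likelihood dispersion of each gene, from a fit with no term but the intercept, was set against the trend at its abundance by an upper-tail F test. The filter on low counts, which asks for about 10 counts in every library, kept 9075 genes and 8 of the 10 KLFs, leaving out Klf9 and Klf12. With Benjamini-Hochberg adjustment edgeR called 0 of 9075 genes, 0.0% of those tested, and therefore no KLF. DESeq2 marked 0 of 21681 genes as dispersion outliers, also 0.0%. The edgeR trend came from the same genes, with 3 residual and 4.31 prior degrees of freedom, so an adjusted call was hard to reach. The immediate early gene Fosb, at 2.72, 328, 151 and 6.24 CPM, had an unadjusted edgeR p of 0.000877 and an adjusted p of 0.94. The empty result therefore does not show that the spread of the KLFs was ordinary. At an unadjusted p under 0.05 edgeR gave 390 genes, 4.3% of those tested, and 5 of the 8 KLFs. With no filter on low counts it gave 467 of 21681 genes, 2.15%, and 3 of the 10 KLFs.

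The KLFs under 0.05 in the filtered fit were Klf2, Klf4, Klf6, Klf10 and Klf13. With no filter on low counts, Klf13 and Klf6 were no longer under it, at unadjusted edgeR p-values of 0.0529 and 0.0566. The dispersion of Klf2 was 5.17 above the trend on the log2 scale, with an unadjusted p of 0.00168 and an edgeR adjusted p of 0.94. Klf10 lay 3.42 above the trend, Klf4 3.33, Klf13 3.19 and Klf6 2.75, with unadjusted edgeR p-values of 0.019, 0.021, 0.025 and 0.043. Klf11 lay 2.42 above and Klf7 1.08 above, neither under 0.05. These calls turned on single libraries for Klf6 and Klf11. The unadjusted p of Klf6 was 0.0602 without replicate 1, 0.06 without replicate 3 and 0.0573 without replicate 4. Klf11 lay 0.81 above the trend without replicate 1 and 3.91 above it without replicate 4, where its unadjusted edgeR p was 0.0089, and Klf7 lay 0.33 above without replicate 4. Klf3 went from -2.11 without replicate 3 to -0.16 without replicate 4. Klf3 lay on the other side, at -1.08, so 7 of the 8 KLFs tested were above the edgeR trend, as were 48.3% of all tested genes. The median edgeR value over the 8 KLFs tested was 2.97, against -0.08 over all tested genes. This spread did not pass the adjusted test for any of them. The DESeq2 dispersion, another measure, was 0.260 for Klf7, below its trend of 0.390, and 0.336 for Klf6, close to its trend of 0.312. That of Klf2 was 1.62 against a trend of 0.318. Klf4, Klf10, Klf11 and Klf13 also lay above the DESeq2 trend, and Klf3 lay below it.

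**Figure D2:**
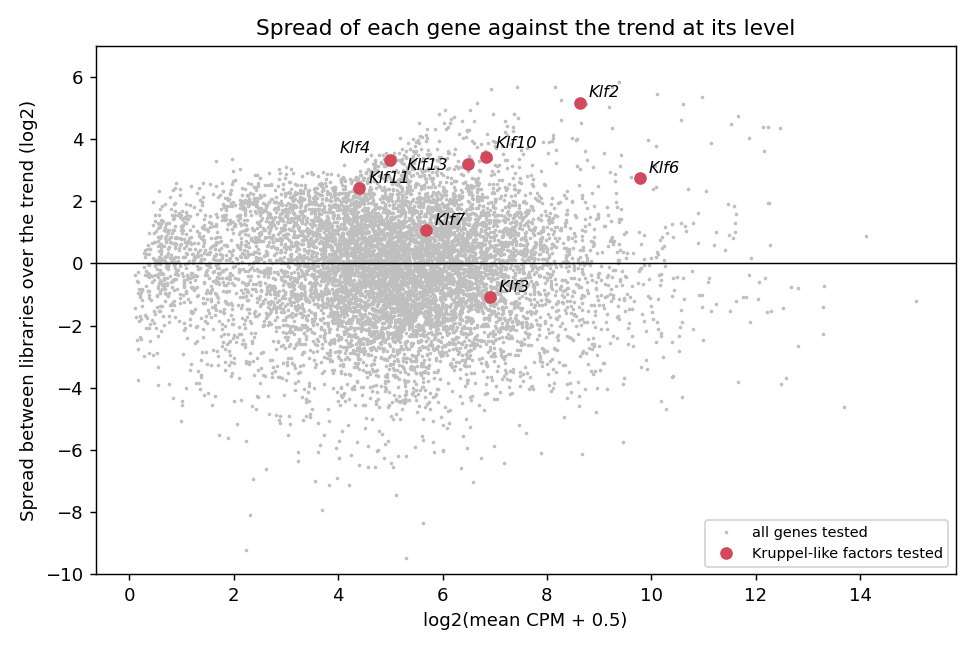
Spread of each tested gene between the 4 libraries over the trend at its abundance (log2, vertical axis) against log2(mean CPM + 0.5). Grey points are the 9075 genes tested and red points the 8 KLFs tested, of which Klf2 is highest at 5.17 and Klf3 lowest at -1.08, below the line at 0 that marks the trend.

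Levels of different genes were compared per kb of exon, since reads also depend on transcript length. In the order of mean log2 level per kb, Klf6 came first, followed by Klf2, Klf10, Klf3, Klf13, Klf7, Klf4, Klf11, Klf12 and Klf9. Klf6 stood at 199.6 ± 117 CPM per kb and Klf2 at 214 ± 252 CPM per kb (SD, n = 4). Their order thus depended on the summary, because the plain mean puts Klf2 first, and Klf6 was the higher in 3 of 4 libraries. Together they made up 76.1%, 88.0%, 83.7% and 80.6% of the summed KLF level per kb in replicates 1 to 4. The share of Klf2 alone went from 12.3% in replicate 1 to 59.8% in replicate 2, while that of Klf10 stayed between 4.93% and 6.38%.

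Most neighbours in that order did not differ beyond their spread. Of the 9 neighbouring pairs, 1 kept its order in 4 of 4 libraries, Klf2 over Klf10, with a log2 ratio per kb of 2.24 ± 1.07 (SD, n = 4). For that pair p was 0.125 in an exact two-sided permutation test that flips signs, the smallest value that 4 libraries allow, and adjusted p = 0.75 over the 9 pairs. Klf10 over Klf3 gave log2 ratios of -0.14, 2.43, 1.81 and -0.32 in replicates 1 to 4, so either gene could be the higher. Klf7 over Klf4 gave 2.03, -1.76, -1.48 and 2.12. Over all 45 pairs, 31 kept 1 order in every library, and Klf6 was above each KLF other than Klf2 in 4 of 4 libraries, by 3.09 ± 0.46 over Klf10 and 4.03 ± 0.93 over Klf3. Klf2 was likewise above each KLF other than Klf6 in 4 of 4 libraries.

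**Figure D3:**
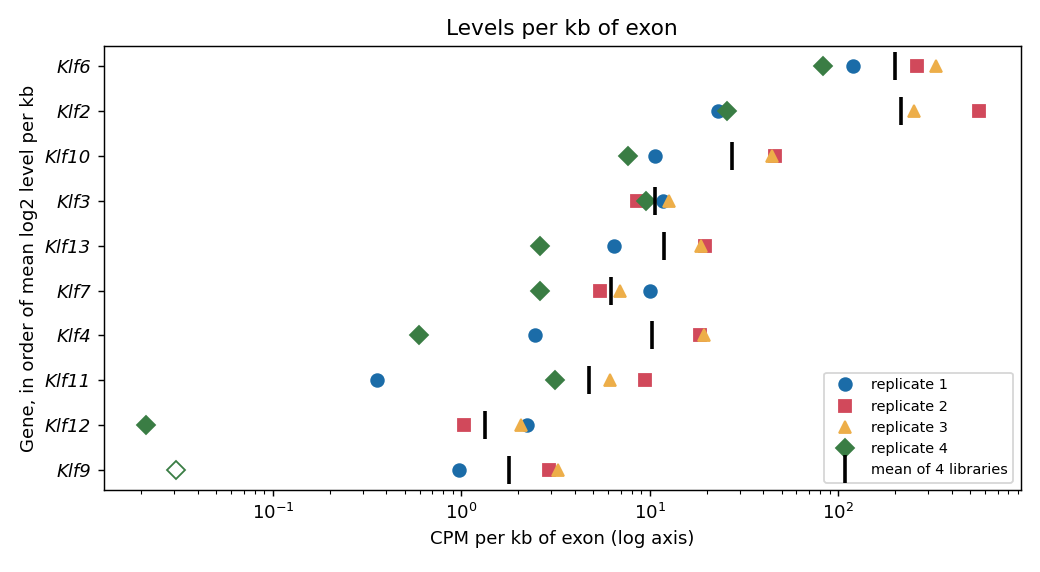
CPM per kb of exon (log axis) of the 10 KLF genes, in order of their mean log2 level per kb, with 1 symbol per library and a black mark at the plain mean. The open symbol is Klf9 in replicate 4, which had no count and is drawn at the level of 3 counts. Klf6 and Klf2 lie above the rest within each library, and the symbols of neighbouring genes overlap below them.

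Among the KLFs themselves, the profiles of Klf10 and Klf13 over the 4 libraries were the most alike. Likeness was measured as the root-mean-square difference between log2(CPM + 0.5) profiles, each centred on its own mean, and was 0.29 for that pair. Klf6 followed, at 0.40 from Klf10 and 0.44 from Klf13. The least alike were Klf11 and Klf12, at 2.72. With 4 libraries these are descriptions of the profiles and carry no test.

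Outside the family, 8167 genes with a mean of 10 CPM or more were ranked by the same measure. Nearest to Klf2 was Csrnp1, at 0.22, with 23.8, 425, 182 and 24.8 CPM in replicates 1 to 4. Klf6 was nearest to Nfkbib, at 0.064, with 56.9, 136, 178 and 41.8 CPM, and then to Snx12, at 0.070. Klf10 was nearest to Icam1, which encodes a leukocyte adhesion molecule, at 0.095, with 227, 891, 875 and 178 CPM, followed by Mknk2 at 0.10.

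Klf4 was nearest to Cpd, at 0.088, and Tbc1d16, at 0.14. Klf13 was nearest to Myc, an immediate early gene on the list used here, at 0.11, with 55.1, 138, 144 and 22.0 CPM. Its second gene was ENSMUSG00000120024, at 0.14. Klf9 was nearest to Naa15, at 0.057, and Ifi207, at 0.096, and Klf11 to Trp53inp2, at 0.15, and Polr3b, at 0.20. Klf12 was nearest to Cbr4, at 0.11, and St8sia4, at 0.11, both of which also stood below 0.5 CPM in replicate 4. The steady profile of Klf3 was matched most closely by Dhx36, at 0.014, and Bccip, at 0.016, and that of Klf7 by Gtf3a, at 0.025, and Mark2, at 0.038. The second gene for Klf2 was Kctd10, at 0.32.

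The rest of the family was scarcely present. Of 8 other KLF genes listed, 7 had a row, and Klf1, Klf8, Klf14 and Klf17 had no count in any library. Klf15, a glucocorticoid-responsive factor, gave 0.0485, 6.29, 5.62 and 0 CPM and Klf16 gave 2.09, 4.65, 5.71 and 0 CPM in replicates 1 to 4. Both were highest in replicates 2 and 3. Klf5, an epithelial factor, had counts in replicate 2 alone, at 0.620 CPM.

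The related SP factors bind the same GC boxes through like zinc fingers. Sp3 gave 86.9, 60.3, 62.2 and 68.9 CPM, a mean of 69.5 ± 12.1 CPM (SD, n = 4), and lay below the edgeR trend, at -2.25. Sp1 gave 37.3, 51.7, 16.3 and 27.6 CPM. Sp2 gave 6.02, 36.8, 24.0 and 0.0491 CPM and Sp4 0.146, 25.9, 34.2 and 40.1 CPM, so a low library was replicate 4 for Sp2 and replicate 1 for Sp4. The other 5 SP genes stayed under a mean of 1 CPM, and no SP gene of the 2 tested had an unadjusted edgeR p under 0.05.

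Immediate early genes shared the direction of most KLFs. Of the 18 listed, 17 were highest in replicates 2 and 3, against 27.5% of genes with a mean of 1 CPM or more. An unadjusted edgeR p under 0.05 was found for 16 of the 16 tested, against 4.3% of all tested genes. None was called after adjustment. The list summed to 4990, 57552, 49954 and 5367 CPM in replicates 1 to 4, and the 10 KLFs to 906, 2782, 2562 and 609 CPM. The protein product of Dusp1 turns off MAP kinases and those of Jun, Zfp36 and Junb regulate transcription or mRNA decay. Dusp1 had a mean of 4801 ± 4840 CPM, Jun 4588 ± 3920, Zfp36 4520 ± 4511 and Junb 3762 ± 3949 (SD, n = 4). The part of whatever raised these genes in the KLF values was not tested.

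Genes upstream of particular KLFs were read from lists. ERK5 and MEF2 proteins are known to drive Klf2 and Klf4, and this list of 12 genes summed to 1482, 1394, 1407 and 1443 CPM. Most of that sum came from Mef2c and Mef2a. Of the 11 genes with a mean of 1 CPM or more, 6 ranged 4-fold or more, against 47.3% of all such genes. Mef2c stood at 705 ± 42.4 CPM and Mef2a at 497 ± 35.2 CPM (SD, n = 4), far below the edgeR trend at -5.74 and -4.02. Map3k2 gave 14.4, 62.6, 43.0 and 113 CPM and Map3k3 69.0, 51.2, 56.6 and 9.43 CPM. Of 9 tested genes, 1 had an unadjusted edgeR p under 0.05, Hdac5, at 0.825, 45.4, 21.9 and 27.5 CPM.

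The TGF-beta list, which bears on Klf10 and Klf11, summed to 3255 to 3345 CPM, most of it Tgfbr1. That near-equal sum covers opposite movements. Tgfbr1 gave 2142, 1570, 1519 and 2434 CPM in replicates 1 to 4, while Skil and Tgif1 were higher in replicates 2 and 3. Of the 12 genes, 4 had a range of 4-fold or more, against 47.3% of genes with a mean of 1 CPM or more. The leading members of the list were Tgfbr1 at 1916 ± 446 CPM, Skil at 407 ± 189, Tgfbr2 at 310 ± 105 and Tgif1 at 289 ± 218 (SD, n = 4). Tgif1, a repressor of SMAD signalling, gave 98.1, 434, 517 and 107 CPM and was the 1 of 10 tested genes with an unadjusted edgeR p under 0.05. Skil, a SMAD antagonist that TGF-beta induces, gave 247, 603, 535 and 243 CPM, high in the same libraries as Klf10.

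The glucocorticoid list, which bears on Klf9, was higher in replicates 2 and 3, with summed levels of 1516, 3652, 3310 and 1924 CPM. The receptor gene Nr3c1 itself stood at 254 ± 28.0 CPM (SD, n = 4). Its targets Tsc22d3, at 352, 1131, 1221 and 421 CPM, Sgk1, at 784, 1898, 1564 and 1115 CPM, and Fkbp5, at 58.0, 170, 156 and 94.9 CPM, were highest in replicates 2 and 3. Of 5 tested genes, 1 had an unadjusted edgeR p under 0.05, Tsc22d3, and none was called after adjustment.

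In the list of SRF and CREB genes, which act on early response promoters, 4 of 10 were tested and 0 had an unadjusted edgeR p under 0.05. The filter on low counts left out the rest. Of the 10, 9 had a range of 4-fold or more, against 47.3% of genes with a mean of 1 CPM or more. Creb1 led it at 87.3 ± 15.5 CPM (SD, n = 4), followed by Elk3 at 24.5 ± 15.3, Crtc2 at 19.6 ± 13.4 and Atf1 at 18.6 ± 8.82. The gene of serum response factor, Srf, gave 0, 2.88, 5.32 and 0.0491 CPM.

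Partners of KLF proteins were present at moderate levels. The list of 16 corepressors, coactivators and ubiquitin ligases summed to 678, 682, 599 and 617 CPM, with 1 of 13 tested genes at an unadjusted edgeR p under 0.05. Crebbp led at 106 ± 47.1 CPM, then Hdac1 at 87.9 ± 6.09, Sin3b at 61.2 ± 6.03 and Hdac3 at 53.0 ± 57.8 (SD, n = 4). Hdac3 was the gene under 0.05 and gave 11.1, 35.5, 27.1 and 138 CPM. Ctbp1, the partner of Klf3 and Klf12, gave 69.98, 53.6, 38.0 and 11.1 CPM, and Ctbp2 gave 50.5, 32.3, 32.8 and 9.33 CPM, both lowest in replicate 4.

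Genes known as KLF targets in other cells did not share 1 pattern. Of 13 listed, 12 had a mean of 1 CPM or more. Of these, 5 were highest in replicates 2 and 3, against 27.5% of all such genes. Of 7 tested, 1 had an unadjusted edgeR p under 0.05. That gene was the cell cycle inhibitor Cdkn1a, at 43.9, 202, 240 and 34.0 CPM. S1pr1, a Klf2 target in T cells, gave 154, 63.0, 73.3 and 169.99 CPM, lowest in the libraries where Klf2 was highest. Mrc1 stood at 145 ± 68.6 CPM and Ccnd1 at 128 ± 55.2 CPM (SD, n = 4). The endothelial Klf2 target Thbd stood at 4.90 ± 1.99 CPM, and Ccl5, named with Klf13, gave 8.35, 15.5, 13.8 and 0.442 CPM.

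**Figure D4:**
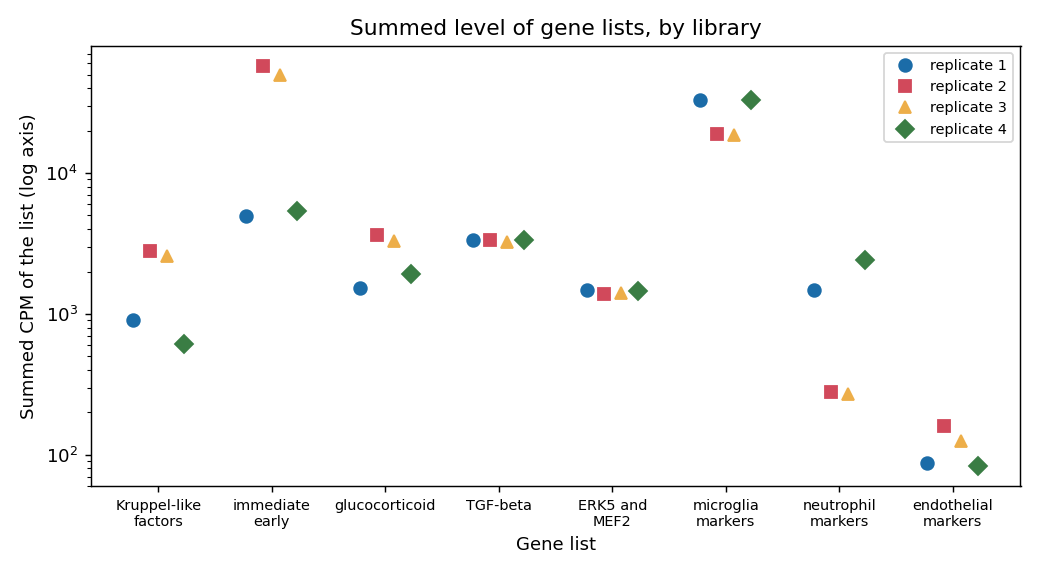
Summed CPM (log axis) of the 10 KLF genes and of 7 other gene lists in each of the 4 libraries, with 1 symbol per replicate. The KLFs, the immediate early genes, the glucocorticoid list and the endothelial markers are highest in replicates 2 and 3. The microglia and neutrophil markers are highest in replicates 1 and 4. The sum of the TGF-beta list stays between 3255 and 3345 CPM, though Tgfbr1 is lower and Skil and Tgif1 are higher in replicates 2 and 3.

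Markers of other cells also moved between libraries. Endothelial cells are rich in Klf2 and Klf4, and the 10 endothelial markers summed to 87.4, 161, 125 and 82.9 CPM in replicates 1 to 4, and 2 of those 10 reached 1 CPM in each library. Of the 9 with a mean of 1 CPM or more, 7 were highest in replicates 2 and 3, as were most KLFs, against 27.5% of all such genes. Among them Slco1a4 gave 13.4, 46.3, 17.6 and 0.982 CPM, Ly6c1 0.0485, 29.2, 18.6 and 6.43 CPM, Flt1 10.97, 19.8, 18.8 and 0.491 CPM and Kdr 4.37, 14.8, 6.78 and 0.0491 CPM. The exceptions were the most abundant markers, Pecam1, at 30.8, 12.3, 20.9 and 45.7 CPM, and Cldn5, at 21.6, 27.7, 16.6 and 29.1 CPM. Cdh5 had no count in replicates 1 and 4. Neutrophil markers summed to 1484, 281, 270 and 2398 CPM, led by S100a8, Ngp, S100a9 and Camp, and were low where Klf2 was high.

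Monocyte markers, led by Chil3, Ccr2, Ly6c2 and Plac8, summed to 122, 66.0, 64.2 and 184 CPM. Markers of border-associated macrophages, led by Mrc1, F13a1, Stab1 and Ms4a7, summed to 294, 794, 862 and 441 CPM, and 7 of 8 reached 1 CPM in each library. Like most endothelial markers, 6 of these 8 were highest in replicates 2 and 3, against 27.5% of all genes with a mean of 1 CPM or more. T and NK cells express Klf2, and their markers summed to 26.0, 27.2, 30.1 and 0.246 CPM. Most of that sum was Il7r, followed by Nkg7, Trac and Cd3g, and Cd3e had counts in replicate 2 alone.

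Red blood cell markers, led by Hbb-bs, Hba-a1, Hba-a2 and Hbb-bt, summed to 42.4, 19.9, 17.1 and 76.9 CPM. Astrocyte markers, led by Slc1a3, Aldoc, Gja1 and Slc1a2, summed to 315, 429, 504 and 240 CPM. Of these 6, 4 were highest in replicates 2 and 3, against 27.5% of genes with a mean of 1 CPM or more. Neuron markers, led by Camk2a, Snap25, Tubb3 and Rbfox3, summed to 12.4, 17.9, 36.7 and 21.4 CPM. Mural cell and fibroblast markers, led by Rgs5, Acta2, Lum and Dcn, summed to 23.3, 96.4, 86.4 and 102 CPM, lowest in replicate 1. The part of these cells in the KLF values was not tested.

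Some KLF loci overlap other genes in the GENCODE annotation, and the labels do not say whether the counting used strand. Klf3 shares its locus with C230096K16Rik on the same strand, which had 104, 154, 139 and 29 counts in replicates 1 to 4, and with Gm20033 on the other strand, which had 83, 53, 53 and 3 counts. Klf3 itself had 2169 to 3318 counts. The genes that overlap Klf7, Klf9, Klf12 and Klf13 had at most 13 counts in any library where they had a row.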

How the data were processed

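The authors deposited 1 file of raw read counts by gene symbol for each library. STAR 2.7.10a, SAMtools 1.16.1, HTSeq 0.11.2 and build GRCm39 are named per the submitters' processing notes. The annotation, strand setting and read filters were not given in the sources used. The closing rows, which hold reads assigned to no gene, 20.8% ± 1.28 (SD, n = 4) of reads, were left out.

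From the counts, CPM was computed over the total assigned to genes. Exon lengths were unions of exons in GENCODE M21 on GRCm38, matched by symbol for 89.1% of rows, so no coordinates of that annotation are printed. RefSeq promoters matched 9 of the 10 genes by symbol. Spread was tested with edgeR 4.0.16 in R 4.3.3 (filterByExpr with a minimum count of 10, TMM scaling, intercept-only quasi-likelihood fit, adjusted p under 0.05). The procedure was also run on simulated data, and its recovery there is not reported here. DESeq2 1.42.0 gave other size factors and dispersion outliers. Pairs of genes were compared within libraries by log2 ratios of (count + 0.5) per kb. All other steps used scipy 1.17.1, pandas 2.3.3 and numpy 2.4.6 under Python 3.11.15, and figures were drawn by matplotlib 3.10.9.

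The 10 genes and the other gene lists were chosen with earlier results of these data known. Named genes are the 10 KLFs, other KLF and SP genes, the 4 highest members of each other list, any list member past the adjusted test (there was none) and the 2 genes nearest to each KLF in profile. Other names, such as list members with an unadjusted p under 0.05, low or defining members of a list and overlapping genes, were chosen after their values were seen. The sums of 2 marker lists are not reported here.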

Additional observations from a re-analysis of the deposited data

Results flagged for a closer look

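The summed CPM of the T and NK cell markers had 1 library far from the others, replicate 4, with a gap to the nearest library that made up 0.864 of the whole range. It was the 1 flagged among 32 sets of 4 values examined, the 10 KLF genes and 22 gene lists (the KLFs as a list included), where chance flags about 1 in 20. No KLF gene was flagged in this way.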

How the results depend on the processing

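Of 162 alternative values computed, 157 kept their direction and their side of the adjusted threshold or, for levels and counts, moved by less than 1 SD or 1.5 times, and none reversed. No setting gave an adjusted edgeR call, and the smallest adjusted p over all genes went from 0.58 without replicate 3 to 0.96 in the robust fit. For the adjusted calls the tally is therefore no measure of stability. The limits for levels were also wide, and the mean of Klf2 counted as kept though it fell from 396 to 185 CPM without replicate 2. The number of KLFs at an unadjusted p under 0.05 was 3 of 10 with no filter on low counts, against 5 of 8, and 4 to 5 with 1 replicate left out. The share of all tested genes was 2.15% with no filter, against 4.3%, and 3.92% to 4.71% with 1 replicate left out. The number with a range of 4-fold or more was 4 to 7 with 1 replicate left out, lowest without replicate 4, and 8 with TMM scaling, which moved the median difference of all genes between replicates 4 and 2 from -0.33 to -0.45. Neighbouring pairs beyond their spread numbered 1 to 2 with 1 replicate left out. The cause was not tested. Robust fit, longest coding transcript, pseudocount 5 for the range, and the alternatives of the counts of ranges, of library order and of unadjusted p were chosen after seeing the data. The coding length from a protein table was not run. No paired analysis was possible because the labels give 1 group. Values of Klf9 and Klf12 in replicate 4 rest on 0 and 3 counts at a library total close to that of replicate 1.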
